A study of Homo sapiens with 4 samples.

Results

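The genes of the nuclear pore and of nuclear transport described here are the protein-coding genes whose symbols mark them as numbered nucleoporins, karyopherins alpha and beta, importins, exportins or transportins, together with RAN, RANBP1, RANBP2 and RANGAP1. The rule found 48 of the 20515 genes in the count table. A further 3 genes it names, KPNA7, NUP210L and NUP62CL, were not analysed here.

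Nuclear pores are large channels in the nuclear envelope, built from proteins called nucleoporins. Proteins and RNAs too large to diffuse through them are carried by transport receptors, most of which belong to the importin beta family and bind the small GTPase Ran. Ran loaded with GTP is abundant in the nucleus, where it releases imported cargo and binds exported cargo, and its GTP is hydrolysed on the cytoplasmic side.

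The study used T47D, a long-established human cell line from a luminal breast carcinoma, and compared cells exposed to baicalein, a flavonoid found in plants, with control cells. Poly(A) RNA was sequenced from 2 libraries of each group, numbered 1 and 2. Both groups share this cell line, and no dose, duration or vehicle was found in the sources used here. Whether the libraries of a group stem from separate cultures is not stated, and each p-value therefore reflects a spread that may be technical.

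Total counts per library ranged from 38597207 to 56732569. All 8 markers of luminal breast epithelium checked (ESR1, PGR, GATA3, FOXA1, KRT8, KRT18, KRT19 and EPCAM) were above 1 CPM (counts scaled to a common library total) in every library, with a summed level of 12330 to 13610 CPM in controls and 6238 to 6333 CPM after baicalein. Of these, 7 fell. Basal epithelial and immune markers summed to 5.70 and 1.72 CPM or less in each library, and no endothelial marker was listed. Fibroblast markers summed to 90.4 to 101 CPM in controls and 141 to 151 CPM after baicalein, nearly all of it COL1A1, while COL1A2 stayed at 0.106 CPM or less and COL3A1, DCN and PDGFRB were not listed. The part of these shifts in the results was not tested. RN7SK, a small nuclear RNA that lacks a poly(A) tail, stood at 33.3 CPM in control 1 and 4.53 CPM in control 2, and at 7.66 and 4.91 CPM after baicalein. Among the 48 genes the log2 ratio of control 1 to control 2 ran from -0.16 (IPO4) to 0.19 (NUP54).

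Among the 48 genes, baicalein-treated cells had lower mRNA of most nucleoporins and of the Ran cycle. Higher mRNA was found for 4 of 6 exportins, XPOT included. With library totals 3 exportins were higher and 1 lower, and without baicalein 2, 3 were higher. Of the 11 import receptors of the beta family, 5 were higher and 4 lower. Under the quasi-likelihood test of edgeR, adjusted by Benjamini-Hochberg over all 18369 tested genes, 24 of the 48 genes were lower (50%) and 14 higher (29.2%). Among all tested genes 37.6% were lower and 37.4% higher, and among tested protein-coding genes 41.9% and 39.2%. The 38 genes called in either direction were a share close to the background of 75.0% of all tested genes and 81.1% of protein-coding ones. The 2 groups did not overlap for 44 of the 48, against 86.9% of all tested genes and 90.2% of protein-coding ones. Changes of at least 2-fold were found in 6 lower genes (RANBP1, NUP85, KPNA2, NUP62, NUP205 and IPO8) and 3 higher ones (XPOT, KPNA4 and NUP58), where all tested genes had 15.2% and 12.2%. A change below 1.5-fold was found in 20 of the called genes. The median log2 fold change (baicalein over control, called log2 ratio from here on) was -0.11 over the 48 genes and 0.00 over all tested genes. With library totals alone as scaling, 28 were lower and 10 higher, or 26.3% of calls higher in place of 36.8%, and the median of all tested genes itself moved to -0.10. In these bulk samples, fewer expressing cells and less RNA per cell cannot be told apart.

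**Figure D1:**
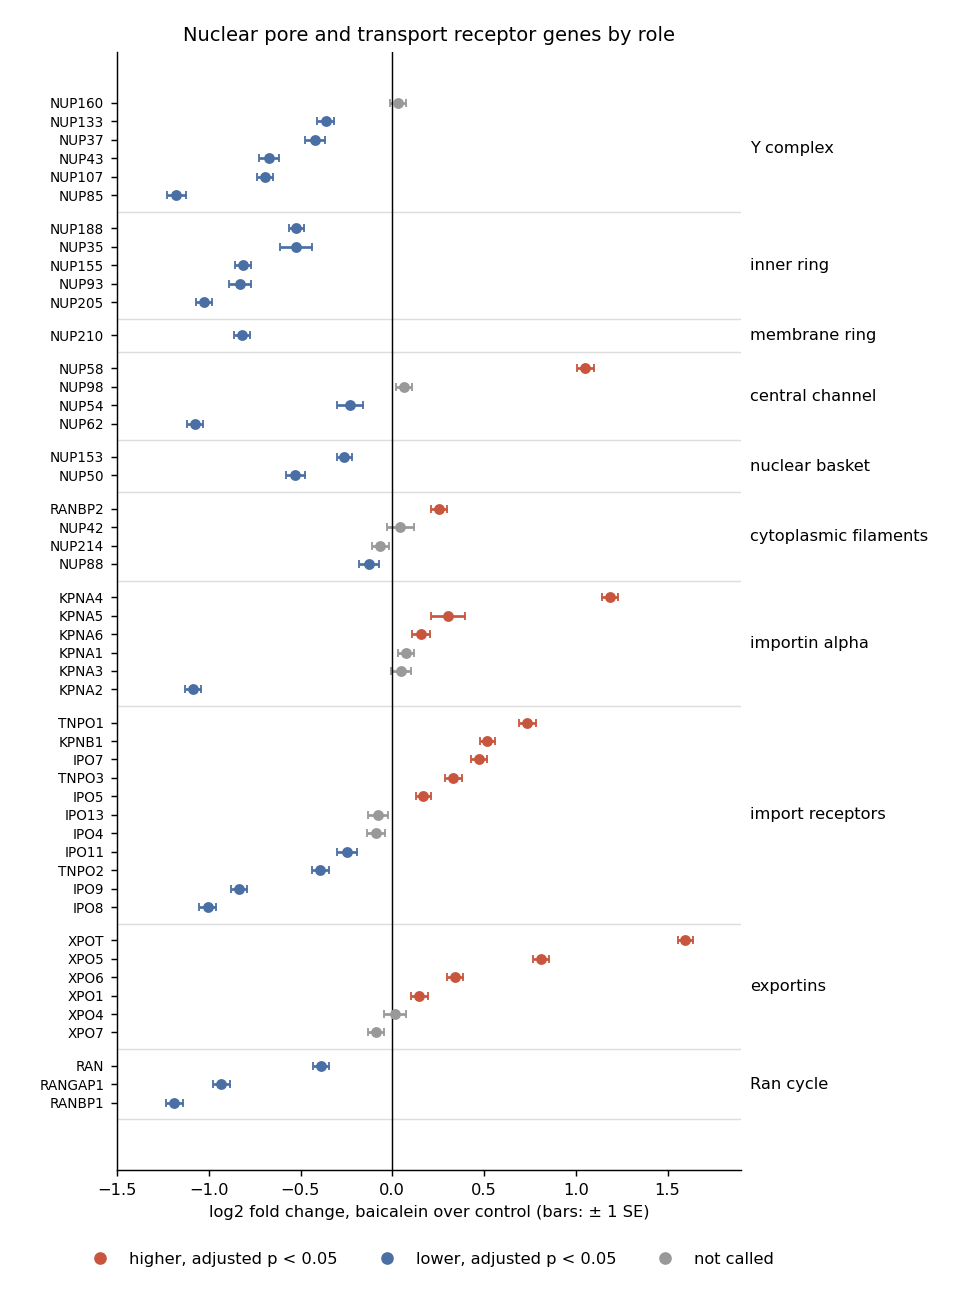
Log2 fold change of each of the 48 genes, baicalein over control, grouped by role. Points are edgeR estimates from 2 libraries per group, bars are 1 SE on each side, and colour gives the call at an adjusted p of 0.05. All 5 inner ring genes and all 3 Ran cycle genes lie left of 0, whereas exportins lie at or right of 0 apart from XPO7 at -0.09.

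Of 22 nucleoporin genes, RANBP2 included, 16 were lower, 2 higher and 4 not called, with a median log2 ratio of -0.47. These are 72.7% lower and 9.09% higher, against 37.6% and 37.4% of all tested genes. The inner ring, which lines the channel and anchors the pore to the membrane, was lower in 5 of 5 genes. NUP205, a large scaffold protein of this ring (ENSG00000155561, chromosome 7, positions 135557919 to 135648757 of GRCh38), had 102 and 103 CPM in control 1 and 2 and 50.6 and 50.3 CPM in baicalein 1 and 2. Both treated libraries lay below both controls, and the gene fell with a log2 ratio of -1.03 (SE 0.05, adjusted p = 3.03e-15). NUP93, which holds the ring together, and NUP155, which helps attach it to the membrane, had log2 ratios of -0.83 and -0.81. NUP188, a scaffold related to NUP205, had 144 and 149 CPM in controls and 102 and 102 CPM after baicalein (log2 ratio -0.52, SE 0.04, adjusted p = 1.73e-10). NUP35, a membrane-binding member of the ring, went from 14.6 and 12.9 to 9.42 and 9.72 CPM (log2 ratio -0.52, SE 0.09). The groups did not overlap for any of the 5 genes, as for 86.9% of all tested genes.

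The Y complex forms the outer rings on both faces of the pore and is needed to build new pores. Of its 6 members under the naming rule, 5 were lower, where 37.6% of all tested genes were lower. NUP160, with 93.7 and 92.3 CPM in controls and 95.5 and 94.5 CPM after baicalein, was not called (0.03, SE 0.04, adjusted p = 0.523). NUP85 (ENSG00000125450, chromosome 17, positions 75205659 to 75235758) had 87.3 and 90.9 CPM in controls and 40.9 and 37.8 CPM after baicalein. It had the largest fall among the nucleoporins, with -1.18 on the log2 scale (SE 0.05, adjusted p = 2.26e-15). NUP107 and NUP43 fell by 0.69 and 0.67 on the log2 scale, and NUP37 and NUP133 by 0.42 and 0.36. These 6 mRNAs of the complex thus spanned log2 ratios from -1.18 to 0.03. Outside the naming rule, SEC13, AHCTF1 and SEH1L of this complex were called higher (0.46, 0.43 and 0.17), unlike most members the rule takes. NUP210, which codes for a glycoprotein of the pore membrane, went from 265 and 274 to 152 and 154 CPM (log2 ratio -0.82, SE 0.04, adjusted p = 9.82e-14).

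Genes of the central channel moved in both directions. NUP62, NUP54 and NUP58 code for the partners of one channel complex that carries phenylalanine-glycine repeats. NUP62 (ENSG00000213024, chromosome 19, positions 49906825 to 49929763) had 146 and 154.5 CPM in controls and 72.6 and 70.3 CPM after baicalein (log2 ratio -1.07, SE 0.04, adjusted p = 7.62e-16). NUP58 (ENSG00000139496, chromosome 13, positions 25301524 to 25349800) went the other way, from 79.3 and 73.3 to 156 and 161 CPM (log2 ratio 1.05, SE 0.05, adjusted p = 2.30e-15). Per kilobase of exon, NUP58 stood at 0.304 and 0.266 times the level of NUP62 in controls and 1.21 and 1.28 times after baicalein. NUP54 had -0.23, a call that was lost without control 1 (adjusted p = 0.0820) and without baicalein 2 (0.0722), over a range of 9.85e-06 to 0.0820 in 13 alternatives. NUP98, which codes for a mobile repeat nucleoporin, had 91.8 and 93.7 CPM in controls and 94.8 and 99.1 CPM after baicalein, and was not called (0.06, adjusted p = 0.197), but passed without control 2. Exons of NUP62 overlap those of ATF5 on the opposite strand over 11.0% of their length. ATF5 had 21.8 ± 1.21 CPM in controls and 26.9 ± 1.08 CPM after baicalein.

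Nucleoporins of the nuclear and cytoplasmic faces under the naming rule had log2 ratios between -0.53 and 0.25. NUP153, which anchors the basket, had 117 and 116.5 CPM in controls and 98.7 and 96.4 CPM after baicalein (-0.26, SE 0.04, adjusted p = 5.95e-06). NUP50, a mobile basket protein that helps release import cargo, had 82.4 and 75.6 CPM in controls and 54.5 and 55.2 CPM after baicalein (-0.53, SE 0.05, adjusted p = 2.57e-09). Both of these basket genes were lower in every treated library. On the cytoplasmic filaments, where export complexes are taken apart, NUP214 (-0.06) and NUP42 (0.04) were not called, although NUP214 passed as lower without control 1 and with library totals. RANBP2, a giant filament protein that binds Ran and acts as a SUMO ligase, had 115 and 113 CPM in controls and 139 and 133 CPM after baicalein (log2 ratio 0.25, SE 0.04, adjusted p = 1.60e-05). Of the windows of 50 bases in RANBP2 transcripts, 27.2% also occur in other genes, mainly the RGPD copies, so its count is less certain. Among these copies RGPD8 had 6.24 ± 0.171 CPM in controls and 11.9 ± 0.192 CPM after baicalein. RGPD5 had 2.64 ± 1.09 and 8.05 ± 1.71 CPM. Both were called higher, as was RGPD1 (0.0638 and 0.44 CPM), while RGPD3 and RGPD6 were not called. The part of these copies in the RANBP2 count was not tested. NUP88, a filament protein that binds NUP214, had 42.7 and 42.1 CPM in controls and 37.5 and 40.4 CPM after baicalein. Its call (-0.13, SE 0.05, adjusted p = 0.0415) was lost without either baicalein library (adjusted p = 0.532 without baicalein 1, 0.0719 without baicalein 2), in DESeq2 (0.151) and with at least 50 counts in 2 libraries (0.0565), over a range of 0.000866 to 0.532. Exons of NUP88 also overlap those of RPAIN on the opposite strand over 17.8% of their length.

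**Figure D2:**
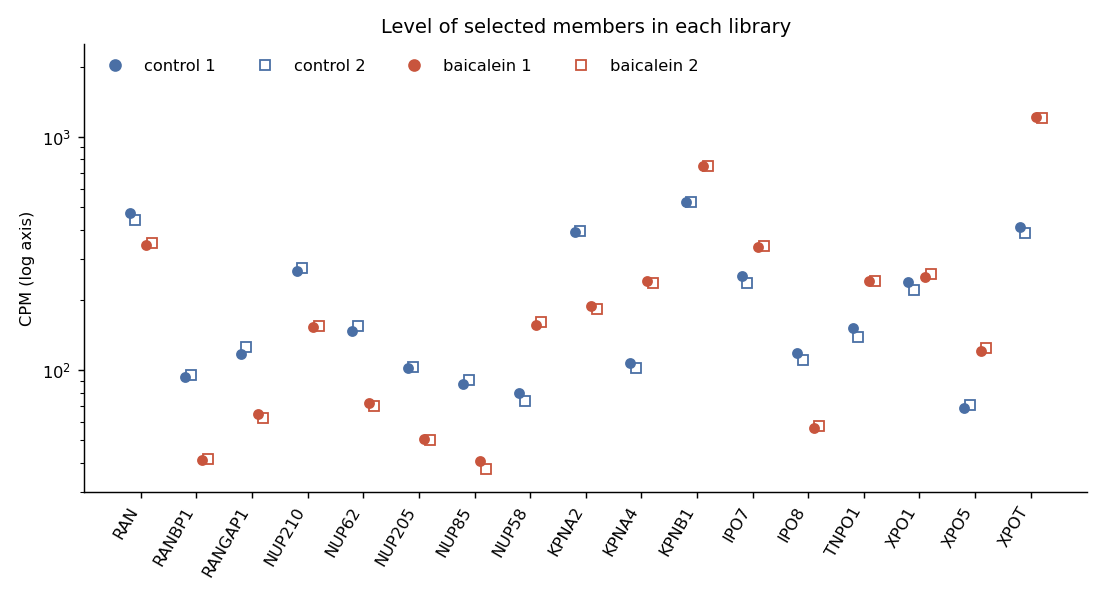
CPM of 17 of the genes in each of the 4 libraries, on a log axis. Circles are the libraries numbered 1 and squares those numbered 2. Both baicalein libraries lie outside the range of the controls for each gene shown, narrowly so for XPO1 (221 to 238 against 251 to 257 CPM).

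Importin alpha proteins are adaptors that bind the classical nuclear localization signal and hand the cargo to importin beta. Their transcripts changed in composition, with KPNA2 lower and KPNA4 higher. KPNA2 (ENSG00000182481, chromosome 17, positions 68035519 to 68046842) had 392 and 396 CPM in controls and 188 and 183 CPM after baicalein. Its log2 ratio was -1.08 (SE 0.04, adjusted p = 3.78e-16). KPNA4 (ENSG00000186432, chromosome 3, positions 160494995 to 160565588) rose from 107 and 102 to 240.5 and 237 CPM (log2 ratio 1.19, SE 0.04, adjusted p = 1.58e-16). KPNA3, the closest relative of KPNA4, had 37.7 and 35.1 CPM in controls and 37.3 and 38.0 CPM after baicalein. These values overlap, and KPNA3 was not called (0.05, adjusted p = 0.449), nor was KPNA1 (0.07), which passed without control 1.

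Per kilobase of exon, KPNA2 made up 76.7% and 77.3% of the summed level of the 6 importin alpha genes in controls, and 53.2% and 52.7% after baicalein. The share of KPNA4 was 6.49% and 6.18% in controls and 21.0% and 21.1% after baicalein. Groups of 2 libraries allow no exact permutation test that reaches the threshold, so these shares are given without one. KPNA6 and KPNA5 were called higher with 0.15 and 0.31, but weakly. The call of KPNA6 was lost without either baicalein library (adjusted p = 0.0694 and 0.0654) and with library totals (0.339), over a range of 8.31e-06 to 0.339. That of KPNA5, with 8.89 and 7.93 CPM in controls and 10.9 and 9.83 CPM after baicalein, was lost without baicalein 1 (0.0967), in DESeq2 (0.0518) and with library totals (0.0589), over a range of 0.000286 to 0.0967. Of the windows of 50 bases in KPNA2 transcripts, 12.9% also occur in other genes. ARHGAP27P1-BPTFP1-KPNA2P3 shared the most (10.6%), followed by the pseudogene KPNA2P3. The level of KPNA2P3 was 6.88 and 4.76 CPM in controls and 3.27 and 2.31 CPM after baicalein.

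**Figure D3:**
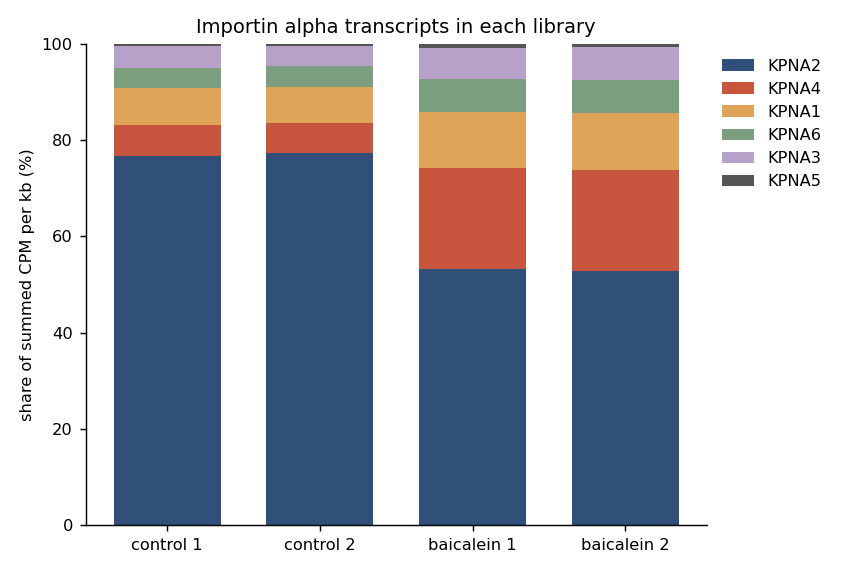
Share of each importin alpha gene in the summed CPM per kilobase of exon of the family, in each library. KPNA2 takes 76.7% and 77.3% in the controls and 53.2% and 52.7% after baicalein, and KPNA4 grows from 6.49% and 6.18% to 21.0% and 21.1%.

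Import receptors of the beta family bind cargo directly or through an adaptor. Of 11 genes, 5 were higher (45.5%), 4 lower (36.4%) and 2 not called, near the 39.2% and 41.9% of tested protein-coding genes. KPNB1, the partner of importin alpha in classical import (ENSG00000108424, chromosome 17, positions 47649476 to 47685505), had 523 and 525 CPM in controls and 749 and 753 CPM after baicalein (log2 ratio 0.52, SE 0.04, adjusted p = 6.21e-11). TNPO1, which carries RNA-binding proteins, went from 151 and 139 to 241 and 241.5 CPM, the largest rise of this class (0.74, SE 0.05, adjusted p = 2.19e-12). Its paralog TNPO2 fell from 97.8 and 103 to 78.2 and 74.9 CPM (-0.39, SE 0.05). The ratio of TNPO1 to TNPO2 per kilobase was thus 0.848 and 0.738 in controls and 1.69 and 1.77 after baicalein.

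The paralogs IPO7 and IPO8 also parted. IPO7, a receptor for ribosomal proteins, rose from 253 and 237 to 338 and 340.5 CPM (0.47, SE 0.04). IPO8 (ENSG00000133704, chromosome 12, positions 30628988 to 30695986), which also serves in small RNA silencing, fell from 118 and 110 to 56.4 and 57.3 CPM (-1.01, SE 0.05, adjusted p = 8.81e-15). Per kilobase, IPO7 stood at 1.92 and 1.94 times the level of IPO8 in controls and at 5.40 and 5.35 times after baicalein. IPO9, a carrier of histones, fell by 0.84 and IPO11 by 0.24 on the log2 scale. TNPO3, which imports splicing factors of the SR family, rose with 0.33. The rise of IPO5 (0.17) was lost with library totals (adjusted p = 0.159), over a range of 1.53e-06 to 0.159. IPO13 (-0.08) and IPO4 (-0.09) were not called. IPO4 passed as lower without control 1, with upper quartile scaling and with library totals, and IPO13 with library totals. A read-through gene covers 95.2% of the exon length of IPO4, and reads shared with it cannot be placed for certain. The read-through gene had 0.265 ± 0.0141 CPM in controls and 0.523 ± 0.321 CPM after baicalein. These values rest on the same placing of reads.

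Exportins carry cargo out of the nucleus together with Ran bound to GTP. Of the 6 genes under the naming rule, 4 were higher, none lower and 2 not called by edgeR. Over all tested genes the shares were 37.4% higher and 37.6% lower. CSE1L, the exporter of importin alpha, lies outside the rule and was lower (-0.97). XPOT, the export receptor for tRNA (ENSG00000184575, chromosome 12, positions 64404350 to 64451127), had the largest change of all 48 genes. Its level was 412 and 388 CPM in controls and 1213 and 1206 CPM after baicalein, a 3.03-fold rise (log2 ratio 1.60, SE 0.04, adjusted p = 2.91e-19). XPO5, which exports microRNA precursors, rose from 68.8 and 70.5 to 121 and 124 CPM (0.81, SE 0.04, adjusted p = 8.46e-14). XPO6, the exporter of actin with profilin, rose from 107.5 and 105 to 134 and 135.5 CPM (0.34, SE 0.04).

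XPO1, the main exporter of proteins with a leucine-rich signal, had 238 and 221 CPM in controls and 251 and 257 CPM after baicalein. Its rise of 0.15 (SE 0.05, adjusted p = 0.00628) was lost without baicalein 2 (0.10) and with library totals (0.411), over a range of 2.19e-09 to 0.411. XPO4 had 33.5 and 31.9 CPM in controls and 34.2 and 31.7 CPM after baicalein, and the groups overlapped. XPO7, with 85.2 and 83.1 CPM in controls and 79.9 and 78.1 CPM after baicalein, was not called (-0.09, SE 0.04, adjusted p = 0.0718). However, XPO7 passed as lower without control 2, with upper quartile scaling and with library totals.

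The Ran cycle genes were lower in 3 of 3 cases, where 37.6% of all tested genes were lower. RANBP1, a cofactor of GTP hydrolysis by Ran (ENSG00000099901, chromosome 22, positions 20115938 to 20127357), had 92.9 and 95.2 CPM in controls and 41.0 and 41.7 CPM after baicalein (log2 ratio -1.19, SE 0.05, adjusted p = 4.88e-16). This was the largest fall of the 48 genes. RANGAP1, the GTPase-activating protein (ENSG00000100401, chromosome 22, positions 41245611 to 41286251), fell from 117.5 and 125.5 to 64.8 and 62.4 CPM (-0.93, SE 0.05, adjusted p = 2.38e-14). RAN, the GTPase itself (ENSG00000132341, chromosome 12, positions 130871879 to 130877678), went from 469 and 441.5 to 344 and 350.5 CPM (-0.39, SE 0.04, adjusted p = 3.03e-08). Exons of RANBP1 overlap those of TRMT2A on the opposite strand over 24.1% of their length, and TRMT2A, at 43.3 ± 1.42 CPM in controls and 40.6 ± 1.65 CPM after baicalein, was not called.

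Summed over each class and divided by exon length, nucleoporins went from 363 and 360.2 CPM per kilobase in controls to 268 and 267 after baicalein, and exportins from 166 and 158 to 308 and 308. Import receptors summed to 262 and 260.4 in controls and 298 and 301 after baicalein, and the Ran cycle to 228 and 222 against 146 and 148. XPOT alone made up 38.7% and 38.25% of the exportin sum in controls and 61.5% and 61.0% after baicalein. These sums, and the ratios that follow, hold only genes the naming rule takes. CSE1L, the exporter of importin alpha, is thus left out, and its mean went from 115 to 58.8 CPM per kilobase. The ratio of import receptors and exportins together to nucleoporins was 1.18 and 1.16 in controls and 2.26 and 2.28 after baicalein. Without XPOT its mean was 0.997 in controls and 1.57 after baicalein. By mean level per kilobase, RAN (144 ± 6.15) and KPNA2 (142 ± 1.17) led in controls, without a difference beyond their spread, followed by KPNB1 (78.4), XPOT (62.4) and RANBP1 (57.7). After baicalein XPOT led with 189 ± 0.796, followed by KPNB1 (112.4 ± 0.426) and RAN (109.6 ± 1.41), with KPNA2 at 66.9 and IPO7 at 53.8. KPNA5 was lowest in both groups, at 0.744 and 0.915 CPM per kilobase.

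**Figure D4:**
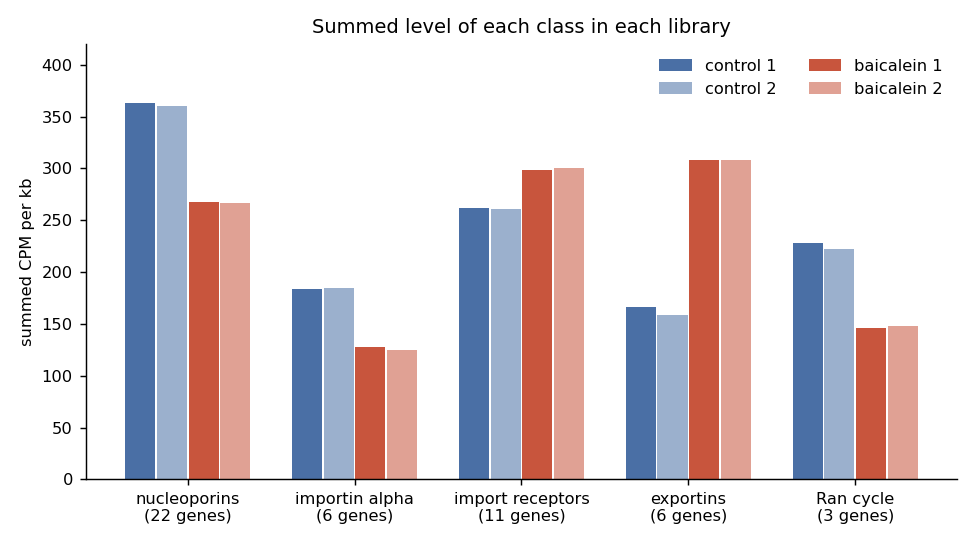
Summed CPM per kilobase of exon for each class of the 48 genes in each library, with bars from 0. Nucleoporins, importin alpha and the Ran cycle are lower in both baicalein libraries than in both controls, and import receptors and exportins are higher, the exportins at 308 in both against 166 and 158.

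Other genes of nuclear transport, which the naming rule does not take, were read in 3 lists. Of 39 genes, 13 were higher, 15 lower and 11 not called, with a median log2 ratio of -0.03, near the background shares given above. With library totals these counts were 10 and 21, or 32.3% of calls higher in place of 46.4%. Of 10 further pore genes, 4 were higher and 4 lower. NDC1, which codes for a membrane anchor of the pore, fell from 81.9 ± 3.86 to 26.1 ± 0.241 CPM (log2 ratio -1.65, SE 0.05, adjusted p = 1.03e-17), a larger fall than that of any of the 48 genes. The highest of this list was SEC13, a protein shared by the Y complex and by vesicle coats of the secretory pathway, with 0.46.

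Of 12 further transport factors, 3 were higher and 4 lower, against 37.4% and 37.6% of all tested genes. RCC1, the exchange factor that loads Ran with GTP, fell from 71.6 ± 1.74 to 33.1 ± 1.11 CPM (-1.11, SE 0.05, adjusted p = 6.56e-15). NMD3, an export adaptor of the large ribosomal subunit, rose with 0.65. Of 17 mRNA export genes, 6 were higher and 7 lower, with THOC3 lowest (-1.44) and PCID2 highest (0.61). Chosen after their values were seen, CSE1L, which returns importin alpha to the cytoplasm, fell from 417.5 ± 23.5 to 213 ± 3.13 CPM (-0.97), and NUTF2, the importer of Ran, had -0.58. The basket gene TPR had -0.66, and the Y complex gene AHCTF1, also chosen so, had 0.43.

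Promoters of the members, 24 of them called lower and 14 higher, were read for 6 short motifs as a description. RefSeq sequences (GRCh38.p14) from 250 bases before to 50 after the start matched 42 of the 48 genes by symbol, and the first listed start was used. RANBP1, NUP43, XPO7, KPNB1, KPNA5 and KPNA4 had no entry. Each motif was searched as exact letters on both strands, and no motif contains another. Shares of all 27305 promoters of the table and of the 11111 of protein-coding genes tested here stand beside each count. The CHR element of cell cycle genes (TTTGAA or TTCGAA) occurred in 7 of 22 promoters of lower members, 1 of 11 of higher members and 1 of 9 of members not called, against 16.6% of all and 11.2% of tested protein-coding promoters. A CCAAT box (CCAAT) was present in 10 of 22, 5 of 11 and 4 of 9, against 35.7% and 36.7%. The core of the NRF1 motif (GCATGCGC) was found in 4 of 22, 0 of 11 and 0 of 9, against 3.27% and 5.33%. For the MYC E-box (CACGTG) the counts were 4 of 22, 1 of 11 and 2 of 9, against 7.43% and 10%. For E2F sites (TTTCCCGC, TTTCGCGC, TTTGCCGC or TTTGGCGC) they were 2 of 22, 1 of 11 and 0 of 9, against 3.33% and 5.23%. An ATF4 motif (TGATGCAA) occurred in 1 of 22, 0 of 11 and 0 of 9, against 0.923% and 0.495%. These counts are small and describe letters in a window, not binding.

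Lower members with both a CHR element and a CCAAT box were KPNA2, NUP205, NUP35 and NUP37. NUP98, which was not called, also held both, and the share of all promoters with both was not counted. The first 4 are shown here 5′ to 3′ on the gene's strand, with the promoter of XPOT, the gene with the largest rise, beside them. Capitals mark matches to any of the 6 motifs.

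KPNA2 (chr17:68035485-68035784, plus strand): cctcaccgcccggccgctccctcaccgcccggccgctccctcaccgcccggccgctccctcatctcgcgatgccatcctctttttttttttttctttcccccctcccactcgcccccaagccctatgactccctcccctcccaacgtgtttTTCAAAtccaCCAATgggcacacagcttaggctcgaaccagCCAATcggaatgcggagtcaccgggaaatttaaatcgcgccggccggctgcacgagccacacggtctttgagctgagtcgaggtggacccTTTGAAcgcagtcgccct

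NUP205 (chr7:135557667-135557966, plus strand): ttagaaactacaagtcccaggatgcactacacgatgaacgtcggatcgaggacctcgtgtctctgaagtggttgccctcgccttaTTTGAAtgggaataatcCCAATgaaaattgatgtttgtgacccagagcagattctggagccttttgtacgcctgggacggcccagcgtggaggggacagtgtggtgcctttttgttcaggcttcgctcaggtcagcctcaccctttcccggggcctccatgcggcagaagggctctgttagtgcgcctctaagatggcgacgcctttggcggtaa

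NUP35 (chr2:183124193-183124492, plus strand): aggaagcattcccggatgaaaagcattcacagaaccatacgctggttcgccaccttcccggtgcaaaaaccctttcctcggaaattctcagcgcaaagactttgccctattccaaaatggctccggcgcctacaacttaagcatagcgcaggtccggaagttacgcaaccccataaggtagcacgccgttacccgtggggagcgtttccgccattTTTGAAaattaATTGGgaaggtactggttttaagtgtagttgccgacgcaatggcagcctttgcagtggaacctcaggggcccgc

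NUP37 (chr12:102120065-102120364, minus strand): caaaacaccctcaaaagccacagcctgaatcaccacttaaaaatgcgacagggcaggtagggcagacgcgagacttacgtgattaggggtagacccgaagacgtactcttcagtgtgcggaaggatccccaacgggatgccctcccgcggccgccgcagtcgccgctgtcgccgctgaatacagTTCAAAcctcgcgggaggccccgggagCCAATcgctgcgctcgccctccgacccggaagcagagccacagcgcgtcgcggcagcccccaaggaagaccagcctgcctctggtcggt

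XPOT (chr12:64404142-64404441, plus strand): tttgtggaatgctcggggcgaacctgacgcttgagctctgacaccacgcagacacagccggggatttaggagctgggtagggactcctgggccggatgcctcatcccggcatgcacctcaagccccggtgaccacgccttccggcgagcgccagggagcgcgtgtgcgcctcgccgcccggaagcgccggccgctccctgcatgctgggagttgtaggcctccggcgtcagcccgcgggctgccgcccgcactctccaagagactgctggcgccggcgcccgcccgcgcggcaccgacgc

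KPNA2 held 2 CHR matches and 2 CCAAT boxes. Counted from the first listed RefSeq start, which can lie away from the gene boundary given above, the first CHR base lay at -165 in NUP205, -35 in NUP35 and -66 in NUP37, and the first CCAAT base at -148, -24 and -39. In KPNA2 the CHR letters lay at -99 and 33 and the CCAAT letters at -89 and -58. The window of XPOT held none of the 6 motifs. That of IPO7, also called higher but not shown, held E2F, CHR and MYC E-box letters. The log2 ratios of the genes shown were -1.08 for KPNA2, -1.03 for NUP205, -0.52 for NUP35, -0.42 for NUP37 and 1.60 for XPOT. A link between motifs and change was not tested.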

How the data were processed

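The authors' deposited table holds unscaled whole-number counts, with genes in rows and 1 column per library. Per the submitters' processing notes the tools were cutadapt 2.3, FastQC 0.11.8, STAR 2.7.8a, RSEM 1.3.3 and DESeq2 1.34 with the build GRCh38. The role of each, the annotation, the use of strand and whether the counts are rounded RSEM estimates were not found in the sources used here. No gene's total was below 10. Columns were matched to samples by their descriptions, and groups came from the titles.

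The main test was edgeR's robust quasi-likelihood F test (edgeR 4.0.16, R 4.3.3) with TMM scaling and no covariates. Of all genes, 18369 passed filterByExpr (count at least 10, total at least 15), all 48 members among them, and 2146 were left out. The threshold was an adjusted p of 0.05. CPM uses library sizes multiplied by TMM factors, and SE is the log2 fold change divided by the square root of F. A floor of 3 counts is 0.0549 to 0.0805 CPM (counting error only). Symbols came from the names table, and gene types, coordinates and exon lengths (union of the basic set) from GENCODE 29, which may not be the authors' release. The fit was tested on simulated counts with known changes in 50 genes at each fold. It called 52% of 1.2-fold, 92% of 1.5-fold and 100% of 2-fold changes in the right direction, and 13 of 17458 unchanged genes. In the data 75.0% of tested genes were called, so the simulation does not test the scaling at such a share.

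Alternatives were other scalings, other filters on low counts, DESeq2 1.42.0, limma-voom (limma 3.58.1), an adjusted p under 0.01, a 1.5-fold null, a replicate block and the omission of each library in turn. Members, role groups and lists were chosen with earlier results of these data known. Full values were given for the largest rise and fall in each role group, for calls of at least 2-fold and for KPNB1, XPO1, RAN, RANBP2, RANGAP1 and KPNA2. In the other lists the largest rise and fall and calls of at least 2-fold were named. CSE1L, NUTF2, TPR, AHCTF1 and SEH1L were named outside this rule.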

Additional observations from a re-analysis of the deposited data

How the results depend on the processing

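Of the 38 called genes, 32 kept their call and direction in the 13 alternatives other than the test against a 1.5-fold change. The exceptions, NUP54, NUP88, KPNA5, KPNA6, XPO1 and IPO5, are given above, and the cause was not tested. Against a 1.5-fold change 5 members were higher and 12 lower, 3090 and 3581 of all genes, and 0 and 5 of the 39 other transport genes, a stricter null by construction. The median log2 fold change of the members was -0.14 with upper quartile scaling and -0.21 with library totals, and -0.14 to -0.082 when each library was left out. Signs of genes that were not called turned under some settings. With upper quartile scaling NUP160 had -0.0014 and XPO4 -0.017. With library totals KPNA1 had -0.029, KPNA3 -0.057, NUP160 -0.073, NUP42 -0.059, NUP98 -0.041 and XPO4 -0.089. When each library was left out, KPNA3 ranged from -0.0002 to 0.097 and XPO4 from -0.040 to 0.075. Without division by length, KPNA2 made up 56.5% of importin alpha CPM in controls and 29.1% after baicalein, and KPNA4 15% and 37.5%. With the replicate number as a block, 14 members were higher and 24 lower, and no call among the 48 changed. Nothing in the labels says that the numbers pair the libraries, and deviations of same-numbered libraries correlated at 0.0136 over genes. A group of 2 libraries limits the precision, and with 1 left out the lone library is assumed to vary like the other group.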
